A study of Mus musculus with 20 samples.

Results

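Gene expression was compared between cells that carried a continuously expressed, biotin-tagged Notch intracellular domain (BioNICD wild type, 2 samples) and cells in which a domain fused to an estrogen receptor part (NICD-ER) had been switched on with 4-hydroxytamoxifen (4-OHT) for 24 h (2 samples). These 4 of the 20 RNA-seq samples of the series were chosen by their titles alone. All came from E2-10HA, a mouse hybridoma that the labels call mature T cells. BioNICD wild type cells held pLXSP-BirA, which supplies the bacterial biotin ligase BirA, and pMY-BioNICD-IRES-GFP, were selected with histidinol and by sorting, and received no treatment. NICD-ER cells held pMIGRI Flag-NICD-ER IRES GFP, were selected by sorting, and received 4-OHT. Each line had a partner: 2 BioNICD-DEP samples with the plasmid pMY-BioNICD-DEP-IRES-GFP, also with BirA, histidinol selection, sorting and no treatment, and 2 NICD-ER samples given ethanol (EtOH) for 24 h. The sources used here do not say what the DEP form changes. The 6 CRISPR control samples, with the lentiCRISPRv2 vector and puromycin selection, had neither construct and show the level of a gene in cells without a Notch plasmid. The series also holds 6 samples with guides against H2A.Z, whose levels are not described here.

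The BioNICD wild type and NICD-ER cells differed in the plasmid and its tag, the drug selection, the ligand and the time for which active NICD had been present, so these cannot be told apart in the direct comparison. The BioNICD wild type and 4-OHT samples are called the active groups below, and the DEP and EtOH samples their partners. Whether any line was 1 clone is not stated, nor whether the 2 samples of a group were grown separately, so the p-values cover the scatter between samples alone, and that scatter may be technical. For replicate 2 of each NICD-ER group the description calls the sample the first replicate, and the titles were followed. The BioNICD wild type samples held 48238324 and 23081893 counts, the 4-OHT samples 33580638 and 39319068, the DEP samples 16371601 and 20725062, and the EtOH samples 28866834 and 30823198. Levels are in CPM, counts scaled to the size of each library, with TMM factors from all 20 samples. Fold changes are log2 values with a standard error (SE) derived from edgeR's quasi-likelihood test, with p-values adjusted over 12499 genes. For large fold changes with few reads in 1 group this SE is too narrow, and can be below counting error alone. The mean chi-square per gene between replicates was highest in the EtOH group, at 19.9. It was 2.66 in the BioNICD wild type, 4.26 in the 4-OHT and 3.20 in the DEP group. Single genes with many reads can carry such a mean. In the EtOH replicates Lars2 had 91.0 and 2791 CPM, and the ribosomal precursor Rn45s also differed. The mean without these genes was not computed, so a difference across most genes is not shown. Without EtOH replicate 1 or 2 the partner contrast called 6298 or 6574 genes, against 6986 with both. In bulk RNA a change in the share of cells that express a gene and a change in RNA per cell cannot be told apart.

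Notch receptors are cut at the membrane when they meet a ligand, and the released intracellular domain enters the nucleus, where it binds the DNA-binding protein RBPJ and recruits Mastermind co-activators. Hes and Hey repressors, Dtx1 and Nrarp are among the genes known to respond directly. In T cells Notch activity is best known for T lineage commitment in the thymus, and in mature T cells for effector differentiation, including granzyme, perforin and cytokine genes.

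The construct genes separated the lines as labelled. Notch1, whose 3′ part encodes NICD, had 290.0 and 274.1 CPM in BioNICD wild type cells, against 93.8 and 90.3 CPM in 4-OHT cells. It had 657.5 and 627.9 CPM in DEP cells, 100.4 and 96.4 CPM in EtOH cells and 2.00 ± 0.697 CPM in CRISPR control cells (SD, n = 6). Notch1 was thus 1.61 ± 0.04 (SE) log2 units higher in BioNICD wild type than in 4-OHT cells (adjusted p = 3.0e-20). Reads of a plasmid and of the endogenous gene cannot be told apart in these counts. Esr1, the estrogen receptor alpha gene, had 0.0402 and 0.0418 CPM in BioNICD wild type cells, which was 3 reads in all, against 20.7 and 16.9 CPM in 4-OHT cells, and 0 CPM in DEP cells against 22.3 and 21.4 CPM in EtOH cells. The ratio of the pooled Esr1 levels in 4-OHT over BioNICD wild type cells was 458 (95% counting interval 157 to 2225, counting error only). Notch2 differed by only −0.08 ± 0.03, and that call was lost under most alternatives tried. Notch4 (0.28 ± 0.22, adjusted p = 0.28) did not pass the test, and Notch3 was too low to be tested.

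Among the direct Notch targets, the differences ran in both directions. Of 26 listed targets, 19 were expressed enough to be tested: 8 were higher in BioNICD wild type than in 4-OHT cells, 8 were lower and 3 did not pass, with a median of 0.02. The fit of all 20 samples called 5 higher and 5 lower. Over all genes tested, 32% were higher and 31.2% were lower (adjusted p under 0.05), with a median of 0.00. Of these targets 5 were at least 2-fold higher and 2 at least 2-fold lower. The construct gene Notch1 is on this list and among the 5. Of all genes 9.1% were at least 2-fold higher and 3.91% at least 2-fold lower. Hes5, Hey2, Heyl, Ptcra, Notch3, Igf1r and Il7r were the 7 untested targets, with all counts near 0.

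Hey1, a transcriptional repressor on chromosome 3 (8663359 to 8667038, mm9), had 435.3 and 432.9 CPM in BioNICD wild type cells, against 42.5 and 48.3 CPM in 4-OHT cells. DEP cells had 0.236 and 0.705 CPM, EtOH cells 0.388 and 0.621 CPM, and CRISPR control cells at most 0.263 CPM. Both active groups thus lay far above every other sample, and BioNICD wild type was 3.25 ± 0.05 log2 units above 4-OHT (adjusted p = 7.2e-24). Dtx1, a ubiquitin ligase that modulates Notch signalling (chromosome 5, 121130273 to 121161678, mm9), had 1643 and 1615 CPM in BioNICD wild type cells, against 360.8 and 365.3 CPM in 4-OHT cells. For Dtx1 the partner cultures ran the other way, with 1.59 and 1.83 CPM in DEP cells against 29.4 and 27.3 CPM in EtOH cells. The fold change was 2.16 ± 0.04 between the active groups and −4.02 ± 0.09 between the partners, and the difference of those 2 values was 6.18 (adjusted p = 1.7e-23). EtOH cells therefore already held Dtx1 RNA above the CRISPR control cells (0.211 ± 0.150 CPM, SD, n = 6).

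Il2ra, the alpha chain of the interleukin-2 receptor, showed the widest gap between the contrasts among genes above 20 CPM in both active groups. It had 549.7 and 533.9 CPM in BioNICD wild type cells, against 359.1 and 355.0 CPM in 4-OHT cells, a log2 fold change of 0.60 ± 0.03 (adjusted p = 4.6e-13). In DEP cells it had 0.472 and 0.282 CPM, against 88.2 and 84.1 CPM in EtOH cells. The active groups were thus within 1 log2 unit of each other, while the partner groups differed by −7.85 ± 0.11. Trib2, a pseudokinase of the Tribbles family, had 101.1 and 102.0 CPM in BioNICD wild type cells, against 48.3 and 47.5 CPM in 4-OHT cells (1.08 ± 0.05, adjusted p = 2.9e-15). All 4 partner samples were lower, at 2.48 and 2.72 CPM with DEP and 7.19 and 7.23 CPM with EtOH.

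Hes1, the best-known Notch-induced repressor, had 71.2 and 75.2 CPM in BioNICD wild type cells, against 80.1 and 83.02 CPM in 4-OHT cells. The samples did not overlap, yet the fold change was small (−0.16 ± 0.05, adjusted p = 7.1e-03). That call was lost with DESeq2 (adjusted p = 0.095), in a fit of all 20 samples (adjusted p = 0.87) and without BioNICD wild type replicate 1 (adjusted p = 0.17) or 4-OHT replicate 2 (adjusted p = 0.088). Hes1 had 5.84 and 5.36 CPM in DEP cells, 24.5 and 27.3 CPM in EtOH cells and 1.49 ± 1.13 CPM in CRISPR control cells (SD, n = 6). Nrarp, a feedback inhibitor of the Notch complex, was low throughout: 2.01 and 1.80 CPM in BioNICD wild type cells, against 3.31 and 4.28 CPM in 4-OHT cells (−0.98 ± 0.18, adjusted p = 7.4e-05). With counts thinned to the smallest library it was −0.59 and did not pass (adjusted p = 0.052). Hes7, at 0.764 and 0.460 CPM against 0.197 and 0.196 CPM, was 1.72 ± 0.45 higher in BioNICD wild type cells, a call lost with DESeq2 and without BioNICD wild type replicate 1.

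Several T-lineage genes from the same list were lower in BioNICD wild type cells. Tcf7, which encodes the transcription factor TCF-1 of naive and stem-like T cells, had 158.9 and 155.6 CPM in BioNICD wild type cells, against 652.5 and 654.8 CPM in 4-OHT cells (−2.06 ± 0.04, adjusted p = 1.1e-22). Tcf7 had 194.1 and 183.2 CPM in DEP cells, 406.2 and 396.0 CPM in EtOH cells and 189 ± 55.3 CPM in CRISPR control cells (SD, n = 6), so the 4-OHT cells were the group that stood above the rest. Bcl2, an anti-apoptotic gene, had 40.7 and 37.8 CPM in BioNICD wild type cells, against 113.7 and 114.6 CPM in 4-OHT cells (−1.54 ± 0.05). Runx1 (−0.60 ± 0.05) and Gata3 (−0.41 ± 0.04), both T cell transcription factors, were lower by less. Myc differed by 0.25 ± 0.04, at 131.5 and 127.7 CPM in BioNICD wild type cells against 108.1 and 109.2 CPM in 4-OHT cells, and both active groups lay below the partner samples, which held 228.5 to 246.5 CPM. The Myc call and that of Bcl11b (0.27 ± 0.04) were lost in the fit of all 20 samples. Lfng (−0.19 ± 0.06) and Rasgrp1 (−0.13 ± 0.04) were lower by small amounts, and neither call held without BioNICD wild type replicate 2. Cd3e (0.02 ± 0.05), Ccnd3 (−0.05 ± 0.03) and Ccnd1 (0.04 ± 0.22) did not pass the test.

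**Figure D1:**
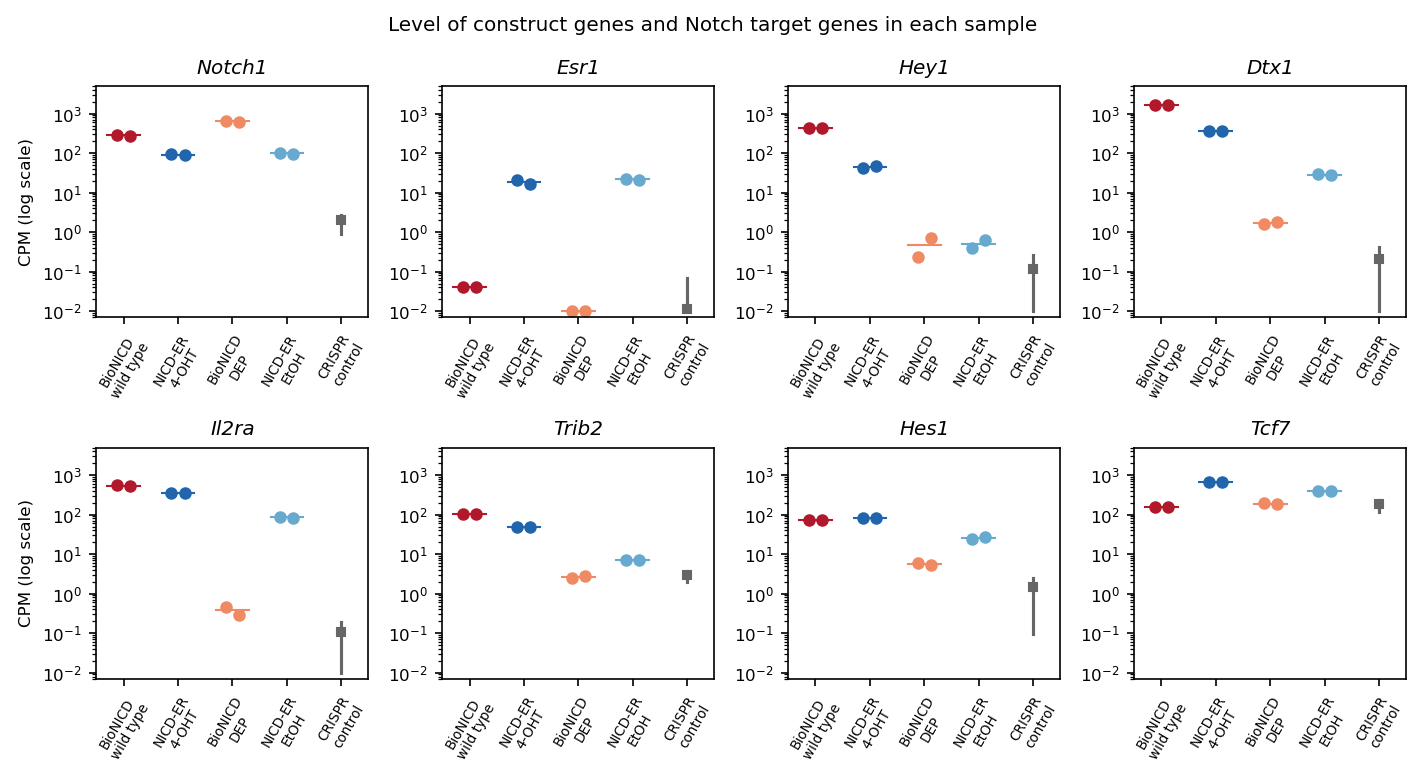
Level of 2 construct genes and 6 Notch target genes in CPM on a log axis, where values under 0.01 are drawn at 0.01. Each dot is 1 sample, the short line is the mean of 2 samples, and the grey square and bar give the mean and range of 6 CRISPR control samples. Hey1 and Dtx1 are highest in BioNICD wild type cells, Hes1 is nearly level between the active groups, and Tcf7 is highest in 4-OHT cells.

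Genes of the pathway itself were called in shares near those of all genes, which were 32% higher and 31.2% lower. Of 24 tested Notch receptor, ligand and processing genes, 7 were higher, 8 were lower and 9 did not pass. The 7 include the construct gene Notch1. Without BioNICD wild type replicate 2, without 4-OHT replicate 2 or with DESeq2, 5 were lower, and the fit of all 20 samples called 4 higher and 3 lower. Furin, the convertase that cleaves the Notch precursor, had 643.2 and 637.6 CPM in BioNICD wild type cells, against 349.5 and 346.0 CPM in 4-OHT cells (0.88 ± 0.04). Jag1, a Notch ligand, was lower (−1.07 ± 0.13) at 3.82 and 3.14 CPM, against 7.28 and 7.68 CPM in 4-OHT cells. Among 28 tested RBPJ partner genes 8 were higher, 8 lower and 12 did not pass, and the fit of all 20 samples called 3 higher and 2 lower. Rbpj itself was at 36.5 and 37.0 CPM in BioNICD wild type cells, against 33.3 and 34.6 CPM in 4-OHT cells, and did not pass (0.11 ± 0.05, adjusted p = 0.086). Maml2, a Mastermind co-activator, was the 1 member at least 2-fold higher, at 1.09 and 1.30 CPM against 0.0281 and 0.0245 CPM, which was 2 reads in 4-OHT cells and a pooled ratio of 44.1 (95% counting interval 11.8 to 370). L3mbtl3, an RBPJ co-repressor, was 0.90 ± 0.05 higher in BioNICD wild type cells.

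Tested cytotoxic effector and cytokine genes were mostly higher in BioNICD wild type cells. Of 16 tested members 15 were higher in BioNICD wild type than in 4-OHT cells, 10 of them at least 2-fold. The median log2 fold change was 4.70. Across all genes 32% were higher and 9.1% at least 2-fold higher. Of the 26 listed genes, 10 were too low to be tested. Some tested members could pass the filter only on BioNICD wild type counts, which set their direction. Il4 was 1 of them, with 227 reads against 4 in 4-OHT cells and 0 in both partner groups. These counts and the median are therefore a description. Gzmb, which encodes the protease granzyme B (chromosome 14, 56877695 to 56881097, mm9), had 4959 and 5060 CPM in BioNICD wild type cells, against 247.5 and 265.4 CPM in 4-OHT cells (4.28 ± 0.04, adjusted p = 9.1e-28). Gzmb had 19.1 and 18.3 CPM in DEP cells against 124.9 and 122.2 CPM in EtOH cells, with 3.02 ± 1.54 CPM in CRISPR control cells (SD, n = 6). Both NICD-ER groups therefore sat between the BioNICD wild type and DEP cells. Prf1, the pore-forming protein perforin (chromosome 10, 60760584 to 60767011, mm9), had 346.0 and 334.0 CPM in BioNICD wild type cells, against 0.815 and 0.636 CPM in 4-OHT cells (8.87 ± 0.08, adjusted p = 1.9e-27). It was under 0.1 CPM in all 4 partner samples, so the 4-OHT samples were closer to their partners than to the BioNICD wild type samples.

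Gzma (granzyme A) had 990.3 and 1063 CPM in BioNICD wild type cells, against 3.09 and 3.08 CPM in 4-OHT cells (8.37 ± 0.07). Gzma was also present in CRISPR control cells, at 35.4 ± 17.3 CPM (SD, n = 6), above DEP (6.96 and 8.08 CPM) and EtOH cells (4.60 and 3.35 CPM). Ifng, interferon gamma, had 52.0 and 57.9 CPM in BioNICD wild type cells, against 0.478 and 0.660 CPM in 4-OHT cells (6.56 ± 0.14), and Il10 had 194.3 and 205.2 CPM against 1.60 and 1.59 CPM (6.96 ± 0.08). Both cytokine genes were under 0.4 CPM in every partner sample. Il13, Gzmk, Il4, Gzmc and Il22 were also at least 2-fold higher, while Tnf (0.25 ± 0.06), Tgfb1 (0.43), Csf2 (0.66), Csf1 (0.80) and Lta (0.88) were higher by less. Ccl5, a chemokine, was the 1 member that was lower, at 3.497 and 3.764 CPM against 6.38 and 6.97 CPM in 4-OHT cells (−0.90 ± 0.12). Granzyme genes are close paralogs, so reads may be divided among them.

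The same list behaved otherwise between the partner groups, where 3 members were higher and 8 lower in DEP than in EtOH cells. Across all genes that contrast called 27.3% higher and 28.6% lower. In the difference of the line contrasts, which called 25.1% of all genes higher and 26.4% lower, 12 of the 16 members were higher and 0 lower. The limit set by the filter holds for these counts as well.

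Interferon-stimulated genes were higher in BioNICD wild type cells almost without exception. All 32 members were tested, 31 were higher, 27 of them at least 2-fold, and 1 was lower, with a median of 1.76. The shares of all genes were 32% higher, 9.1% at least 2-fold higher and 31.2% lower. This list was chosen with earlier results of these data known, so the counts are a description. Some members could pass the filter only on BioNICD wild type counts. Oas1a was 1 of them, with 488 reads against 5 in 4-OHT cells and 2 in each partner group. Irf1, an interferon-induced transcription factor (chromosome 11, 53583516 to 53591876, mm9), had 574.1 and 572.8 CPM in BioNICD wild type cells, against 153.9 and 156.3 CPM in 4-OHT cells (1.88 ± 0.04, adjusted p = 3.2e-22). The 4 partner samples held 72.6 to 116.8 CPM of Irf1 and the CRISPR control samples 51.7 to 64.0 CPM, so the BioNICD wild type samples stood apart from all others. Iigp1, an immunity-related GTPase, had 90.0 and 94.1 CPM in BioNICD wild type cells, against 0.253 and 0.269 CPM in 4-OHT cells (8.43 ± 0.13).

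The antiviral genes Oas1a (6.57 ± 0.29) and Ifi44 (6.48 ± 0.16) and the receptor-transporting protein gene Rtp4 (4.91 ± 0.12) followed in size. Usp18, which restrains type I interferon signalling, was the exception, at 21.6 and 21.2 CPM in BioNICD wild type cells against 28.0 and 30.2 CPM in 4-OHT cells (−0.45 ± 0.06). Between the partners only 3 members were higher and 22 were lower in DEP than in EtOH cells, beside 27.3% and 28.6% of all genes. In the difference of the contrasts 31 of 32 had a higher value, beside 25.1% of all genes. Members of the Gbp and Irg GTPase families share sequence, so single values there are uncertain.

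MHC class I presentation genes shared the direction at smaller size. Of 13 tested members, 12 were higher in BioNICD wild type cells, 7 at least 2-fold, 0 lower, with a median of 1.05. The shares of all genes were 32% higher, 9.1% at least 2-fold higher and 31.2% lower. Nlrc5, the transactivator of MHC class I genes, had 150.1 and 142.3 CPM in BioNICD wild type cells, against 33.7 and 30.3 CPM in 4-OHT cells (2.19 ± 0.06). B2m, the class I light chain, had 3963 and 4137 CPM, against 1090 and 1170 CPM in 4-OHT cells (1.84 ± 0.04). H2-K1, a class I heavy chain, was also higher, at 1843 and 1897 CPM against 647.4 and 667.0 CPM, as was the peptide transporter gene Tap1 (1.44 ± 0.04), and the chaperone Calr was the member that did not pass (−0.03 ± 0.04). Between the partners 3 members were higher and 7 lower in DEP cells, beside 27.3% and 28.6% of all genes.

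Promoter windows of these genes are shown to place the differences beside the letters upstream of the genes. They come from RefSeq's GRCm38.p6 windows of 300 bases, from 250 bases before to 50 after the gene start, and their coordinates are in that build. The core TGGGAA bound by RBPJ was searched on both strands. It was present in 2 of 15 windows of the called Notch targets (13 of 16 genes had a window), against 25.6% of all 32851 windows. The genes with a match were Hes7 and Lfng. Hes1 and Hey1 had no window and were not searched, so these counts do not bear on their promoters. Iigp1 had no window either. The same core was in 7 of 26 windows of the interferon-stimulated genes and in 7 of 11 windows of the called MHC class I genes, B2m among them. A second search used the core GAAANNGAA of interferon response elements, and was chosen after the interferon-stimulated genes had been seen to differ. It was present in 15 of 26 windows of that list (22 of 32 genes had a window) and in 2 of 11 windows of the called MHC class I genes (10 of 12 had one), against 8.56% of all windows. A match is a description of letters, and a window without one does not bear on binding elsewhere. The Hes7 window shows the RBPJ core in capitals, here on the opposite strand.
Hes7, chr11:69120203-69120502, plus strand: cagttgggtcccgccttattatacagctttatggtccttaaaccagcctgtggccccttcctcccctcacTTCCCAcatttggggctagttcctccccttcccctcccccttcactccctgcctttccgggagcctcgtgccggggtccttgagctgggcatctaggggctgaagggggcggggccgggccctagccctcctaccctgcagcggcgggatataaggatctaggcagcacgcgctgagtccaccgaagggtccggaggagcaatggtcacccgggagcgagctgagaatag
The Oas1a, Ifit3 and B2m windows show the interferon response core in capitals, with overlapping matches run together in Oas1a. All 3 windows also hold the RBPJ core on 1 of the strands, left in lower case.
Oas1a, chr5:120907476-120907775, minus strand: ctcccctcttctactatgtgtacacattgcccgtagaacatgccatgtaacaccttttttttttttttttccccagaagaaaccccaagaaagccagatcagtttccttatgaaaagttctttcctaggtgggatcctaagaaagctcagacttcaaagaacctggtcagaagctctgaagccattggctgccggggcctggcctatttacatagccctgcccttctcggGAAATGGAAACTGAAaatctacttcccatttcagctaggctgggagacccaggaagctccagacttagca
Ifit3, chr19:34583279-34583578, plus strand: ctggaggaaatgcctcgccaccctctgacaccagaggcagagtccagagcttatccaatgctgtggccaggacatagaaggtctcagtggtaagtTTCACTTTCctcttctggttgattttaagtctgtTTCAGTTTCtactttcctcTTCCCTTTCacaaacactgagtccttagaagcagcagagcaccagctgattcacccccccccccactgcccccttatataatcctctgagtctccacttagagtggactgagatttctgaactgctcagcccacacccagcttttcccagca
B2m, chr2:122147437-122147736, plus strand: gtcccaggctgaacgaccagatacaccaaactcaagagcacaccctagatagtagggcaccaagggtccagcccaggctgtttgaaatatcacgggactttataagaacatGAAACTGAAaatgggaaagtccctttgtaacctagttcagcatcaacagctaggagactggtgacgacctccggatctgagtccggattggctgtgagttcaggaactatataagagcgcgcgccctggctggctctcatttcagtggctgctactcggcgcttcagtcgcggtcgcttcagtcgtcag

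Oas1a, with 2 such matches, had 6.79 and 6.27 CPM in BioNICD wild type cells, against 0.0562 and 0.0733 CPM in 4-OHT cells. Ifit3, with 3, had 2.61 and 2.68 CPM against 0.646 and 0.880 CPM in 4-OHT cells (1.77 ± 0.24).

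Cytokine receptor and JAK-STAT genes were mostly higher. Of 28 tested members 22 were higher in BioNICD wild type cells, 12 at least 2-fold, 3 were lower and 3 did not pass. The shares of all genes were 32% higher, 9.1% at least 2-fold higher and 31.2% lower. Il21r, the interleukin-21 receptor (chromosome 7, 132746943 to 132777084, mm9), had 24.3 and 26.4 CPM in BioNICD wild type cells, against 0 and 0.0489 CPM in 4-OHT cells. With 2 reads in the 4-OHT group, the pooled ratio was 955 (95% counting interval 264 to 7891). Il4ra had 92.0 and 91.6 CPM against 6.04 and 6.28 CPM in 4-OHT cells (3.89 ± 0.07), and Il2rb, the beta chain shared by the interleukin-2 and interleukin-15 receptors, had 185.3 and 187.3 CPM against 26.5 and 26.5 CPM (2.81 ± 0.05). Each of the 3 receptor genes was without overlap between the groups. With 2 samples per group that is a weak criterion, and its share over all genes is not given here.

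Feedback and signalling genes of the same pathway were split. Socs3, which inhibits JAK signalling, had 46.7 and 47.2 CPM in BioNICD wild type cells, against 2.50 and 2.69 CPM in 4-OHT cells (4.17 ± 0.10). Socs2 was lower, at 0.884 and 0.418 CPM against 3.43 and 2.71 CPM (−2.07 ± 0.24). Jak3 (1.30 ± 0.04) and Stat3 (1.21 ± 0.03) were more than 2-fold higher, and the common gamma chain gene Il2rg did not pass (0.07). Ifngr1, a chain of the interferon gamma receptor, was lower (−0.43).

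Surface receptors that co-stimulate or restrain T cells differed in both directions. Of 16 tested members 11 were higher, 4 were lower and 1 did not pass, beside 32% higher and 31.2% lower over all genes. Cd244 had 28.0 and 31.2 CPM in BioNICD wild type cells, against 0.281 and 0.220 CPM in 4-OHT cells (6.86 ± 0.17). Cd27, a co-stimulatory receptor of the TNF receptor family, had 14.4 and 17.9 CPM against 0.927 and 0.660 CPM (4.33 ± 0.18), and Ctla4, an inhibitory receptor, had 2.25 and 2.72 CPM against 0.0281 and 0.147 CPM (4.67 ± 0.41). Pdcd1, the gene of the inhibitory receptor PD-1, went the other way, at 129.9 and 128.5 CPM in BioNICD wild type cells against 512.9 and 515.2 CPM in 4-OHT cells (−2.00 ± 0.04). It was higher still in DEP (675.5 and 699.9 CPM) and EtOH cells (959.2 and 982.2 CPM). Cd44, an adhesion receptor, was also lower (−2.49 ± 0.04).

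Homing receptors were divided, with 8 of 19 tested higher and 9 lower, beside 32% higher and 31.2% lower over all genes, and the fit of all 20 samples called 5 higher and 6 lower. Ccr7, the lymph node homing receptor, had 7.56 and 6.69 CPM in BioNICD wild type cells, against 63.0 and 58.7 CPM in 4-OHT cells (−3.07 ± 0.08). In DEP and EtOH cells Ccr7 was at 3.29 CPM or below, so both active groups lay above their partners. Ccr2, a receptor for inflammatory chemokines, was lower in BioNICD wild type cells (−2.84 ± 0.11), with higher values in the partners (27.9 and 31.1 CPM with DEP, 42.3 and 47.5 CPM with EtOH) than in either active group. S1pr1, which directs exit from lymph nodes, was higher but near the detection limit (1.00 and 0.711 CPM against 0.0843 and 0.293 CPM).

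Transcription factors of T cell differentiation were higher in 14 of 25 tested cases and lower in 8. The shares of all genes were 32% higher and 31.2% lower. In the fit of all 20 samples 6 were higher and 6 lower, so the excess of higher calls was not found there. Ets1 had 71.5 and 68.1 CPM in BioNICD wild type cells, against 0.871 and 0.709 CPM in 4-OHT cells (6.47 ± 0.11, adjusted p = 1.2e-23), and was under 0.6 CPM in all 4 partner samples. Bcl6, the factor of follicular helper cells, had 33.9 and 33.4 CPM against 2.84 and 3.98 CPM (3.28 ± 0.10). Prdm1, which encodes the effector factor Blimp-1, had 84.7 and 76.1 CPM against 22.4 and 21.4 CPM (1.88 ± 0.06), so Bcl6 and Prdm1, known as mutual antagonists, were higher together. Tbx21, the T-bet gene of type 1 responses, was higher by 1.09 ± 0.07. Satb1, a chromatin organiser of T cells, was lower, at 0.523 and 0.878 CPM against 5.51 and 4.65 CPM (−2.97 ± 0.21).

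T cell receptor genes were expressed in both groups, and those of the CD3 chains differed little: Cd3d (0.01 ± 0.04) and Cd3e did not pass, and Cd3g was 0.20 ± 0.04 higher. Cd247, the zeta chain, was low and lower in BioNICD wild type cells, at 0.724 and 0.837 CPM against 5.76 and 5.67 CPM in 4-OHT cells (−2.91 ± 0.20), and DEP cells had 0.236 and 0.845 CPM against 6.77 and 6.39 CPM in EtOH cells. Cd247 was thus low in both BioNICD lines. Cd6, a co-receptor, had 40.1 and 38.8 CPM against 4.30 and 3.74 CPM (3.30 ± 0.09), Cd28 was higher by 1.46 ± 0.05, and the adaptor gene Trat1 was lower (−3.27 ± 0.20). Of 21 tested members 8 were higher and 9 lower, beside 32% higher and 31.2% lower over all genes. In the fit of all 20 samples 5 were higher and 6 lower.

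**Figure D2:**
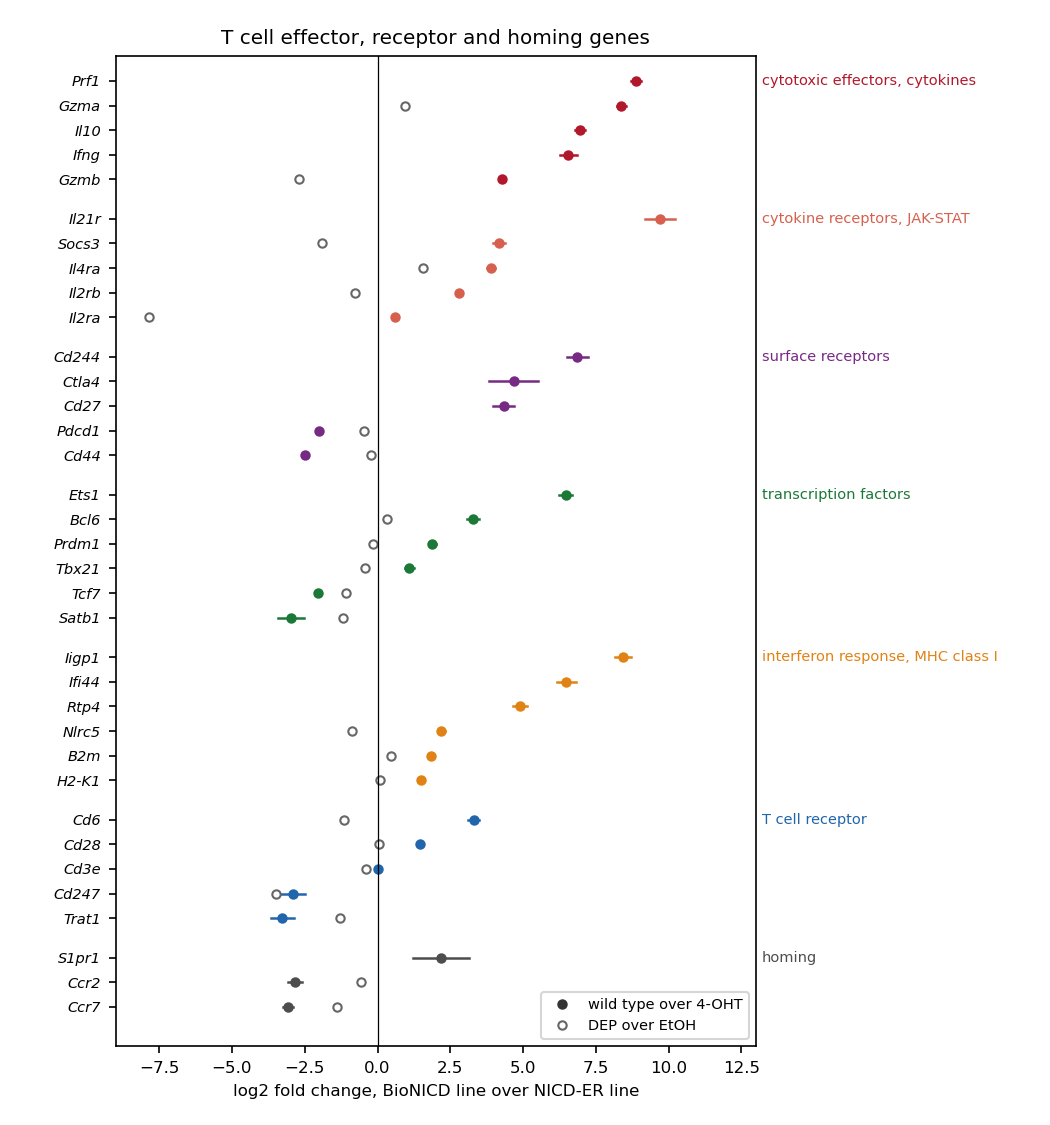
Log2 fold changes of T cell genes, with BioNICD wild type over 4-OHT as filled points with 95% intervals. Open points give DEP over EtOH, shown where either partner group averaged at least 1 CPM. The intervals rest on the SE and are too narrow for large fold changes with few reads in 1 group. Effector, interferon and cytokine receptor genes lie to the right in the active contrast, from 0.60 for Il2ra to 9.71 for Il21r. Cd3e is at 0.02, and Ccr7, Ccr2, Cd44 and Pdcd1 lie to the left.

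Most of the genes with the highest fold changes were nearly silent in 4-OHT cells. Of the 12 highest, 8 had no read in the 4-OHT group: Gm12185, Csn1s1, Vwa5b1, Gzmg, Fcrl1, Tgtp2, Tspan9 and Large. Csn1s1, a milk casein gene, had 24.9 and 24.6 CPM in BioNICD wild type cells, at least 632-fold above the 4-OHT group when 3 counts over the group are taken as the floor. Blk, a Src family kinase best known from B cells, had 241.9 and 239.4 CPM in BioNICD wild type cells, against 0.0562 and 0.0245 CPM in 4-OHT cells, a pooled ratio of 6148 (95% counting interval 2103 to 29814). Noxa1 and Gm4951 each had 1 read in the 4-OHT group, and Il21r completed the 12.

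Among the 12 lowest were Slc22a3, Esr1, Izumo1r, Mgst1, Lars2, Lonrf3, Ccdc91, Plaur, Syt13, Trpa1 and Cd163l1. Slc22a3, an organic cation transporter, had no read in BioNICD wild type cells, against 5.28 and 5.21 CPM in 4-OHT cells, so it was at least 129-fold lower. Slc22a3 was also present in EtOH and CRISPR control cells (8.45 and 9.62 CPM, and a mean of 6.21 CPM) and low in DEP cells (0.413 and 0.892 CPM). Izumo1r, folate receptor 4, had 0.322 and 0.586 CPM against 32.6 and 32.0 CPM in 4-OHT cells, with 1.32 to 2.95 CPM in the partner samples, so the 4-OHT cells stood above all others. Ccdc91, a Golgi protein gene, had 9.45 and 9.79 CPM against 185.9 and 179.9 CPM, and a like gap between DEP (20.8 and 20.4 CPM) and EtOH cells (206.2 and 205.0 CPM). Lars2, which encodes a mitochondrial leucyl-tRNA synthetase, had 58.6 and 63.7 CPM against 2184 and 2968 CPM, but the EtOH replicates held 91.0 and 2791 CPM, so the spread within 1 group was nearly as wide as the contrast, and the call (−5.40 ± 0.81) was lost in the fit of all 20 samples (adjusted p = 0.094). The share of counts on the ribosomal precursor Rn45s was 1.84% and 1.92% in BioNICD wild type and 3.63% and 3.87% in 4-OHT samples, and its part in the Lars2 values was not tested.

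Near-silence in other groups was common among the genes at least 2-fold apart, and its share over all tested genes is not given here. A gene can pass the filter on its counts in a single group, which favours near-silence elsewhere among the genes called. With a filter of at least 1 CPM in 2 samples, fewer genes were at least 2-fold apart in either direction. Of the 1137 genes at least 2-fold higher in BioNICD wild type cells, 626 were under 1 CPM in 4-OHT cells, and 543 of those were also under 1 CPM in DEP, EtOH and CRISPR control cells. Only 107 of the 626 reached 5 CPM in BioNICD wild type cells. Of the 489 genes at least 2-fold lower, 287 were under 1 CPM in BioNICD wild type cells, 23 of them at 1 CPM or more in all 3 other groups, and 13 of the 287 reached 5 CPM in 4-OHT cells.

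Markers of other cell types were checked beside these results. The summed T cell markers came to 1555 to 1591 CPM in BioNICD wild type cells, against 1622 to 1668 CPM in 4-OHT cells. The 8 B cell markers summed to 1611 to 1663 CPM, against 162 to 163 CPM, but Cd22 and Blk made up nearly all of it, with 15 reads of Pax5 in BioNICD wild type cells against 1 in 4-OHT cells, and no read of Ms4a1 and Ebf1 in BioNICD wild type cells. The myeloid sum (62.1 to 63.7 CPM against 2.54 to 3.43 CPM) was almost all Itgam, with Csf1r, Adgre1, Cd14 and Lyz2 under 0.2 CPM. Fcgr3 was called lower in BioNICD wild type cells, at 16 reads against 78 in 4-OHT cells. Mpo (10 reads against 19) and Csf3r (2 against 6) also had fewer reads there. The NK sum (96.3 to 99.5 CPM against 2.02 to 2.27 CPM) was almost all Nkg7. Ncr1 was at 2.33 and 2.01 CPM against 0, and Klrk1 at 26 reads against 0. Klrb1c, Klre1 and Klra7 were at 0 in BioNICD wild type cells, while 4-OHT cells had 11 reads of Klrb1c and 2 of Klre1. Tyrobp had 4 reads against 7 in 4-OHT cells. The fibroblast sum (114 to 117 CPM against 1.37 to 1.57 CPM) was almost all Pdgfrb, with 12 reads of Col1a1 against 2 and 11 of Thbs1 against 0, and Col1a2, Col3a1, Pdgfra and Lum at 0 in BioNICD wild type cells. The part of other cells in the results was not tested. Erythroid and epithelial sums stayed under 3 CPM in both groups.

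Glycolysis genes were mostly higher in BioNICD wild type cells. Of 22 tested glycolysis genes, 17 were higher and 5 lower, with a median of 0.60, beside 32% and 31.2% of all genes. Between the partners 15 were higher and 4 lower, with a median of 0.56, beside 27.3% and 28.6% of all genes. Slc2a1, the glucose transporter GLUT1, had 564.6 and 579.3 CPM in BioNICD wild type cells, against 227.2 and 222.6 CPM in 4-OHT cells (1.34 ± 0.04), and 539.9 and 515.9 CPM in DEP cells against 313.7 and 293.5 CPM in EtOH cells (0.82). Bnip3 (1.79 ± 0.04), Aldoc (1.61 ± 0.04) and Slc16a3 (1.57 ± 0.05) were higher in the same way in both contrasts, with 1.41, 1.34 and 1.15 between the partners. Most glycolysis genes were thus higher in the BioNICD line in both contrasts. Aldoc, a glycolytic aldolase, had 204.2 and 209.6 CPM in BioNICD wild type cells, 66.9 and 68.6 CPM in 4-OHT cells and a mean of 303 CPM in CRISPR control cells. In the difference of the contrasts 8 of the 22 were higher and 4 lower, with a median of 0.05, beside 25.1% and 26.4% of all genes.

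Cholesterol synthesis genes were split, 13 of 25 higher and 7 lower, beside 32% higher and 31.2% lower over all genes. Fdft1 was highest (1.04 ± 0.04). Without 4-OHT replicate 2, 4 were lower, and the fit of all 20 samples called 5 higher and 1 lower. Between the partners 20 were higher and 1 lower in DEP cells, beside 27.3% and 28.6% of all genes. In the difference 2 were higher and 16 lower, beside 25.1% and 26.4% of all genes.

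Proliferation genes were lower in BioNICD wild type cells by small amounts. Of 24 G1/S and replication genes 23 were lower and 0 higher (median −0.48). Of 24 G2/M genes 23 were lower and 0 higher (median −0.31), beside 31.2% lower and 32% higher over all genes. Mki67, the Ki-67 antigen gene, had 1293 and 1273 CPM in BioNICD wild type cells, against 2040 and 2118 CPM in 4-OHT cells (−0.70 ± 0.04, adjusted p = 2.0e-13). Ccne2, cyclin E2, was furthest apart, at 15.4 and 14.2 CPM against 33.9 and 34.9 CPM (−1.21 ± 0.07). Between the partners the G2/M genes ran the other way, with 21 of 24 higher in DEP than in EtOH cells and 0 lower. All 24 were lower in the difference of the contrasts, beside 26.4% of all genes. The G1/S genes were 6 higher and 13 lower between the partners, where 27.3% of all genes were higher and 28.6% lower.

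Cyclin D and CDK inhibitor genes were divided, with 3 of 12 tested higher, 3 lower and 6 that did not pass. Over all genes 32% were higher and 31.2% lower. Cdkn1a, the p21 gene, had 140.3 and 141.2 CPM in BioNICD wild type cells, against 52.99 and 50.19 CPM in 4-OHT cells (1.44 ± 0.05), and Cdkn2d (0.99) and Cdkn1b (0.25) were higher by less. Cdkn2c, which encodes the CDK inhibitor p18, was lower (−0.61 ± 0.03), as were Rb1 (−0.34) and Cdk6 (−0.21). In the fit of all 20 samples 2 members were higher and 0 lower. Of 10 tested genes of the Myc network 6 were higher and 2 lower, and among them Mxd1, a Myc antagonist, had 98.6 and 94.6 CPM against 15.6 and 16.1 CPM (2.61 ± 0.06). Ribosome biogenesis genes were lower in 18 of 24 cases and higher in 1, with a median of −0.36 and Gnl3 at −0.64 ± 0.04. The fit of all 20 samples called 11 of the 24 G1/S and 3 of the 24 ribosome biogenesis genes lower. Apoptosis regulators were 10 higher and 5 lower of 17, with the death receptor gene Fas (1.95 ± 0.22) and Bmf (1.43 ± 0.10) higher and Bcl2 and Bid (−0.95 ± 0.07) lower.

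The remaining lists were divided or small, beside 32% higher and 31.2% lower over all genes. Of 14 p53 targets 7 were higher and 3 lower, of 22 stress genes of the ATF4 and unfolded protein response 9 were higher and 6 lower, and of 22 immediate early genes 9 were higher and 9 lower. In the fit of all 20 samples these lists had 4 higher and 0 lower, 4 higher and 3 lower, and 5 higher and 1 lower in the same order. Slc7a11, the cystine transporter gene, was lower (−1.64 ± 0.08), and Egr1 was higher (1.25 ± 0.10). Of 7 tested DNA methylation genes 6 were lower and Tet2 was higher (0.48 ± 0.04), while 3 were lower without 4-OHT replicate 2 and in the fit of all 20 samples. Of 11 tested genes listed for estrogen receptors and for responses to them or to xenobiotics, 3 were higher and 4 lower. The 4 include the construct gene Esr1 and the receptor gene Esr2 (2 reads against 27 in 4-OHT cells), which are not read as responses. Nqo1, a detoxification gene, was lower, at 1.05 and 1.25 CPM against 8.60 and 7.72 CPM in 4-OHT cells (−2.87 ± 0.16).

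**Figure D3:**
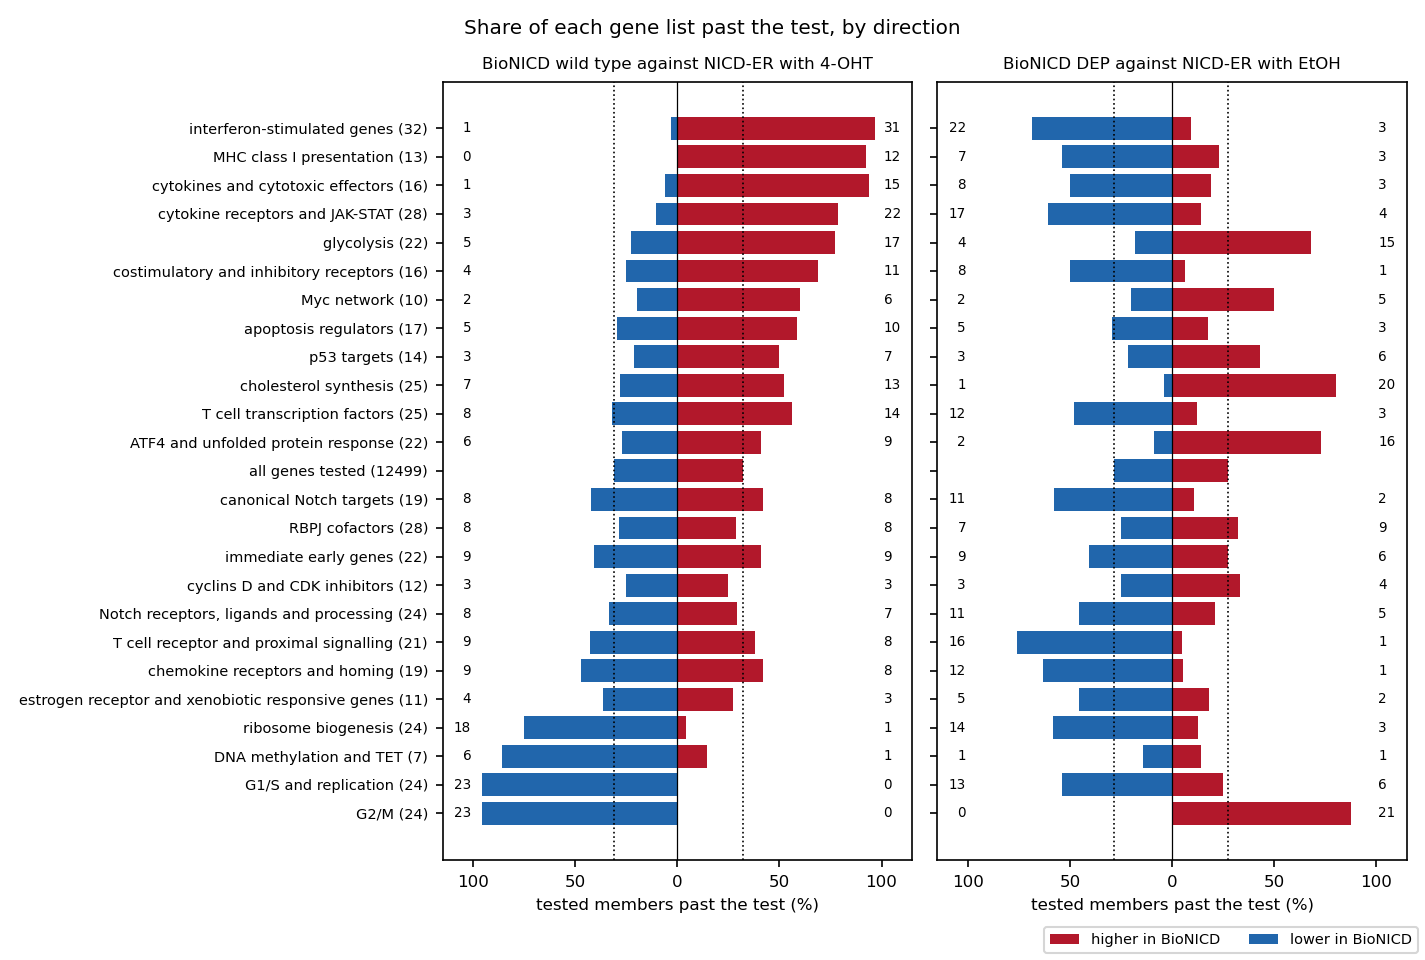
Share of tested members of each gene list past the test, to the right where higher and to the left where lower in the BioNICD line, for BioNICD wild type against 4-OHT and for DEP against EtOH. Numbers at the edges are counts of genes, brackets give the number tested, and dotted lines mark the share of all tested genes. Interferon-stimulated genes show 31 higher and 1 lower in the first contrast and 3 higher and 22 lower in the second, while glycolysis shows 17 and 15 higher.

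The direct comparison and that of the partners share no samples, so their fold changes could be set side by side. Across 12499 genes Pearson's r was 0.14 and Spearman's rho 0.26, given as a description, since genes are not independent replicates and each pair of groups shares its lines. Of the 1137 genes at least 2-fold higher in BioNICD wild type than in 4-OHT cells, 123 (10.8%) were also at least 2-fold higher in DEP than in EtOH cells, which is 46.6% of the 264 in that direction. A further 664 (58.4%) were not called between the partners, and 240 (21.1%) were called in the opposite direction. Of the 1137, 543 were under 1 CPM in DEP, EtOH and CRISPR control cells, where few reads limit a call. Over all 12499 genes 44.1% were not called in that contrast and 28.6% were called lower. There 264 of the 12499 were at least 2-fold higher and 601 at least 2-fold lower. Of the 489 at least 2-fold lower, 172 (35.2%) were also at least 2-fold lower in DEP cells, or 28.6% of 601, 202 were not called and 14 were called the opposite way. The difference between the line contrasts was called for 6438 genes.

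The genes with the widest such difference were chosen for it, which favours opposite directions in the contrasts, so their values are a description. Of the 10 named by the rule (at least 20 CPM in both active groups), all were higher in BioNICD wild type than in 4-OHT cells and all were lower in DEP than in EtOH cells. Besides Il2ra, Gzmb and Dtx1 they were Cd22, Deptor, Tgm2, Parp14, Serpinb6b, Arhgef10l and Rhov. Cd22, an inhibitory lectin receptor of B cells, had 1421 and 1372 CPM in BioNICD wild type cells, against 162.8 and 161.4 CPM in 4-OHT cells, and 0.531 and 0.705 CPM in DEP cells against 11.2 and 8.16 CPM in EtOH cells. Tgm2, transglutaminase 2, had 823.0 and 812.5 CPM against 41.4 and 39.5 CPM in 4-OHT cells, with less than 1 CPM in all partner samples. Deptor, an inhibitor of mTOR, had 243.6 and 229.7 CPM against 70.6 and 71.2 CPM, and 1.42 and 0.939 CPM in DEP cells against 21.4 and 21.4 CPM in EtOH cells.

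**Figure D4:**
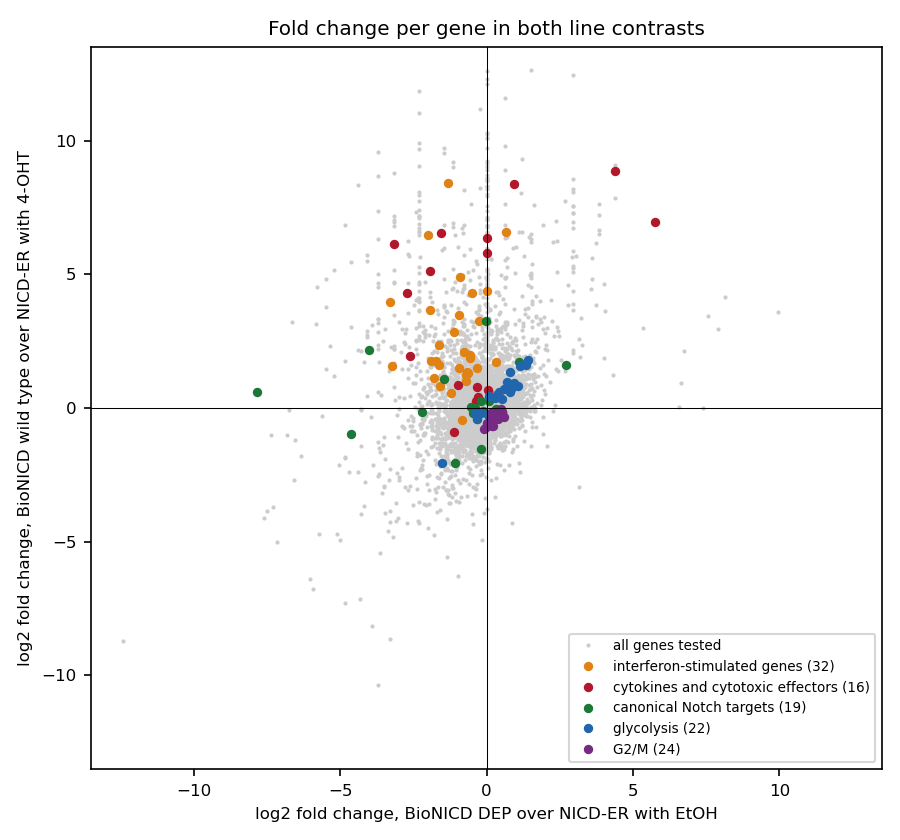
Each point is 1 of 12499 genes, with the log2 fold change of DEP over EtOH on the x axis and of BioNICD wild type over 4-OHT on the y axis, and 5 gene lists in colour. Interferon and effector genes other than Usp18 and Ccl5 lie above 0 on the y axis, glycolysis genes lie along the diagonal, and G2/M genes lie below 0 on the y axis with most to the right of 0 on the x axis. Vertical stripes are genes with 0 or few reads in the partner groups.

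Fold changes also varied by chromosome. On chromosome 8 the median over 645 tested genes was −0.31, with 23.9% of them above 0, and between the partners it was −0.30. Of the tested genes there, 386 were lower and 90 higher in BioNICD wild type cells. The shift was of similar size in both contrasts. On the X chromosome the median was −0.17 in the direct comparison and 0.00 between the partners, and on chromosome 14 it was −0.08 and −0.18. All other medians lay between −0.09 and 0.10. Copy number was not measured, and its part in these medians was not tested.

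**Figure D5:**
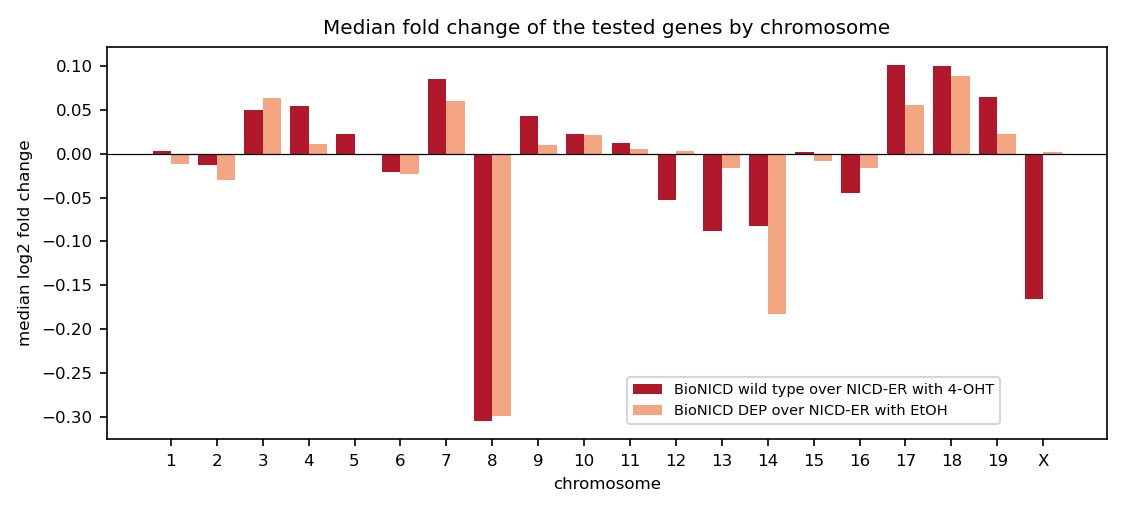
Median log2 fold change of the tested genes on each chromosome for BioNICD wild type over 4-OHT (dark) and DEP over EtOH (light). Chromosome 8 is near −0.30 in both, while the X chromosome is at −0.17 in the direct comparison and at 0.00 between the partners.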

How the data were processed

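Per the labels' protocols, libraries were prepared from rRNA-depleted total RNA with a kit that marks strand. The authors deposited raw read counts per gene for 24391 genes. Per the file headers, they were made with featureCounts 1.5.0 over a UCSC mm9 annotation with no strand option, so reads of overlapping or antisense genes cannot be told apart. The submitters' processing notes also name FastQC, Trimmomatic, STAR and DESeq2, with no version in the sources used here.

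From the deposited counts, genes were kept with edgeR's filterByExpr (12499 genes) and scaled with TMM, and 1 quasi-likelihood model (edgeR 4.0.16, R 4.3.3) was fitted over the 8 BioNICD and NICD-ER samples, with 4 residual degrees of freedom. Contrasts were BioNICD wild type over 4-OHT, DEP over EtOH, and the difference of these. Genes with a Benjamini-Hochberg adjusted p under 0.05 were called. The SE is the fold change over the root of the F statistic. It is not a direct estimate of spread, and is too narrow where the fold change is large and 1 group has few reads. Between wild type replicates the mean chi-square per gene was 2.66. Single genes with many reads can carry such a mean, so it does not by itself show that they were separate libraries. Totals ran from 16371601 to 48238324 counts, and 3 counts over a group correspond to 0.0392 to 0.0784 CPM. Floors and counting intervals cover counting error only.

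Named genes were the 12 highest and 12 lowest called, non-overlapping genes of at least 5 CPM in the higher group, all construct and Notch target genes, up to 4 per other list (all of lists of 12 or fewer), and up to 10 genes of at least 20 CPM with the widest difference of contrasts. Some genes that met these rules are not reported here. Other genes named with values were picked from the lists after their values were seen. Members and gene lists were chosen with earlier results of these data known. Alternatives comprised other scalings, filters, sample sets, DESeq2 1.42.0, a replicate block, each sample left out, thinned counts, and counts without Rn45s and Lars2. The fit was tested on simulated data. The H2A.Z guide samples entered only the TMM scaling of CPM values and the fit of all 20 samples.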

Additional observations from a re-analysis of the deposited data

Results flagged for a closer look

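The difference between the 2 line contrasts (BioNICD wild type over 4-OHT, minus DEP over EtOH) was called for 6438 genes with edgeR's quasi-likelihood test. Among Notch targets the value was positive for Il2ra (8.44), Dtx1 (6.18), Hey1 (3.26), Trib2 (2.53), Hes1 (2.04), Bcl11b (0.46), Cd3e (0.40), Lfng (0.29) and Myc (0.18). It was negative for Bcl2 (−1.33), the construct gene Notch1 (−1.11), Tcf7 (−0.99), Runx1 (−0.71) and Ccnd3 (−0.36). The other genes named for the widest difference were Cd22 (7.02), Gzmb (6.99), Deptor (5.93), Tgm2 (5.71), Parp14 (4.93), Serpinb6b (4.89), Arhgef10l (4.70) and Rhov (4.18), each with both active samples of BioNICD above those of 4-OHT and both DEP samples below those of EtOH, directions that the choice by widest difference favours.

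Of 12 genes whose levels were checked over the 6 CRISPR control samples, 1 had a sample far from the others: Esr1 was at 0.0687 CPM in replicate 3, which is 1 read, and at 0 in the other 5. Chance marks about 1 in 20 groups of continuous values, but with 5 samples at 0 a single read is marked by construction.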

How the results depend on the processing

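Of 161 named and tested genes, 2806 of 2870 log2 fold changes over 18 alternatives kept their side of the threshold. A further 64 in 24 genes no longer passed, and 0 reversed where either fit called the gene. Changes of sign in genes that neither fit called were not counted. The fit of all 20 samples, which shares its spread with the CRISPR samples, moved the counts by more than 1.5 times. It called 3799 genes in the direct comparison (2142 higher, 1657 lower), against 7896 in the 8-sample fit. Between the partners it called 2962 (1394 higher, 1568 lower) and in the difference of contrasts 2112 (1332 higher, 780 lower), so the share of higher calls in the difference was 63.1%, against 48.7%. Replicate numbers did not pair the samples: correlations of same-numbered deviations ran from −0.03 to 0.07. With the replicate number as a block, 8180 genes were called in the direct comparison. Leaving out 1 sample gave 6726 to 8189 calls there, and a lone sample was then assumed to vary like the other groups. DESeq2 called 6528. With 2 samples per group, small differences rest on the spread shared over 8 samples, and genes under 1 CPM rest on few reads.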
